A study of Equus caballus with 17 samples.

Results

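The response of horse muscle cells to moderate hypoxia was measured as the difference between 3 RNA-seq libraries from cultures at 3% O2 for 72 h and 4 libraries from cultures at 21% O2 for 72 h. These 7 libraries were taken by their treatment labels from the 17 in the series. All cells came from the gluteus medius muscle of 1 preterm foal, given as 10 months old, and were obtained after its death. Pre-plating had been used to deplete fibroblasts, and the remaining cells were seeded into gelatin-coated flasks, where they attached overnight in room air. The following day the hypoxic flasks went into a workstation that holds O2 at the set level, and the control flasks stayed in a standard incubator at about 21% O2. Temperature, CO2 and handling were stated to be the same in both groups, which carry no other agent or genetic change. The labels speak of technical replicates and do not say that the libraries came from separate cultures, so a p-value here measures only the spread between these samples, all from 1 animal.

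Mammalian cells sense oxygen through prolyl hydroxylases, which use it to mark the alpha subunits of the hypoxia-inducible factors (HIF) for breakdown. When oxygen falls, the alpha subunits persist, pair with a stable partner in the nucleus and raise the transcription of genes for glycolysis, red cell and vessel growth and the control of mitochondria. Myoblasts, the dividing precursors of muscle fibres, live in tissue where the oxygen level is well under that of room air, and oxygen is known to influence whether they divide or fuse into myotubes. The deposited tables know each gene by an Ensembl ID only, and no symbol could be paired with any of the 38849 IDs. The HIF, glycolysis, myogenic and other gene lists, and the markers of muscle cells and fibroblasts against which the label of the cells would be checked, were therefore not analysed here.

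Total counts ran from 12358247 to 18736554 at 3% O2 and from 12552499 to 21478497 at 21% O2. The number of genes with at least 10 counts was 13291 ± 255 at 3% O2 (SD, n = 3) and 13591 ± 462 at 21% O2 (SD, n = 4). The groups overlapped in both measures (two-sided exact permutation test over 35 assignments, p = 0.657 for the totals and 0.343 for the genes detected, adjusted p = 0.686 for both). The smallest p this design allows is 0.0286. A core of 12355 genes had at least 10 counts in every one of the 7 libraries. No gene had at least 10 counts in all libraries of one oxygen level and no count in the other.

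The libraries did not divide by oxygen level alone. Replicate 1 at 3% O2 stood apart from the other 6 libraries, and the library labelled replicate 1 at 21% O2 lay nearer to replicates 2 and 3 at 3% O2 than to its own group. On log2 CPM (counts scaled to a common library total, on a log scale), the first principal component held 58.4% of the variance. On it, replicate 1 at 3% O2 scored -79.3 and the others 11.6 to 14.3. The second component held 24.4%, where replicates 2, 3 and 4 at 21% O2 scored -22.7, -22.6 and -21.5. The library labelled replicate 1 at 21% O2 scored 27.4, beside replicates 2 and 3 at 3% O2 at 21.5 and 19.2. The 2 groups as labelled held 24.0% of the variance.

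**Figure D1:**
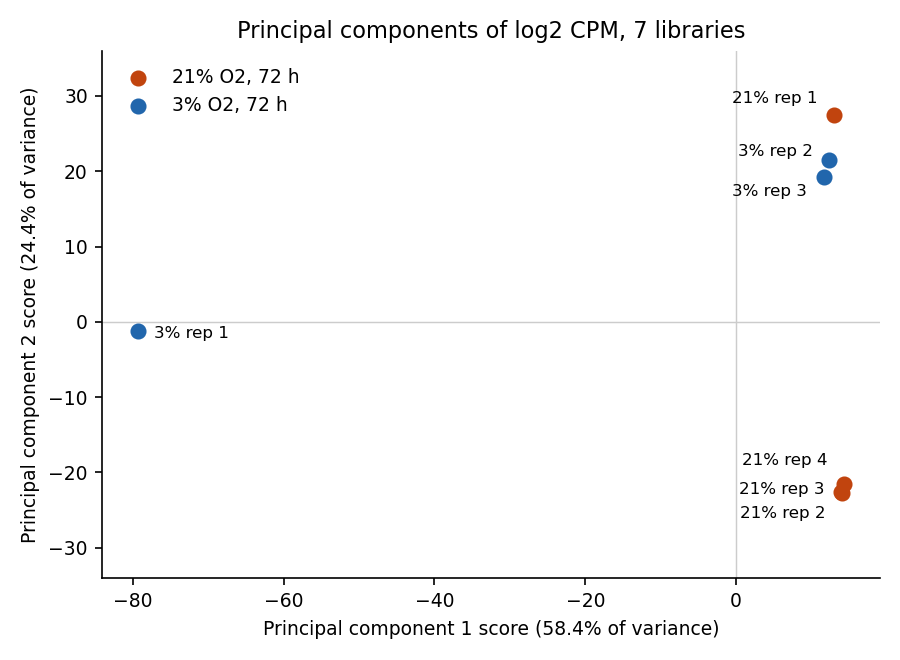
Scores of the 7 libraries on the first (horizontal) and second (vertical) principal components of log2 CPM; each point is 1 library, coloured by oxygen level. Replicate 1 at 3% O2 lies alone at -79.3 on the first component, and the library labelled replicate 1 at 21% O2 lies at 27.4 on the second, next to replicates 2 and 3 at 3% O2.

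The same order was seen in the differences between pairs of libraries, taken as the median absolute difference in log2 CPM over the 9960 genes that averaged at least 100 counts. Replicates 2 and 3 at 3% O2 differed by 0.0739, the smallest of the 21 pairs. Replicates 2, 3 and 4 at 21% O2 lay 0.0794 to 0.0891 from one another. Both sets were thus tight, and they lay 0.150 to 0.162 apart.

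The library labelled replicate 1 at 21% O2 differed by 0.130 and 0.138 from replicates 2 and 3 at 3% O2, but by 0.186 to 0.219 from the other libraries at 21% O2. By contrast, replicate 1 at 3% O2 differed by 0.302 and 0.299 from the 2 libraries of its own group and by 0.268 to 0.359 from those at 21% O2. Its nearest library was replicate 3 at 21% O2. Averaged over pairs as labelled, the difference was 0.201 ± 0.0775 between groups (SD, 12 pairs) and 0.171 ± 0.0931 within them (SD, 9 pairs), and pairs that share a library are not independent. Replicates 2 and 3 at 3% O2 differed by more than counting error (chi-square of 2.29 per degree of freedom over 14469 genes, where the other pairs gave 3.71 to 112), and were counted as 2 samples. Counting error is all this covers, and it does not show that they came from separate cultures.

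**Figure D2:**
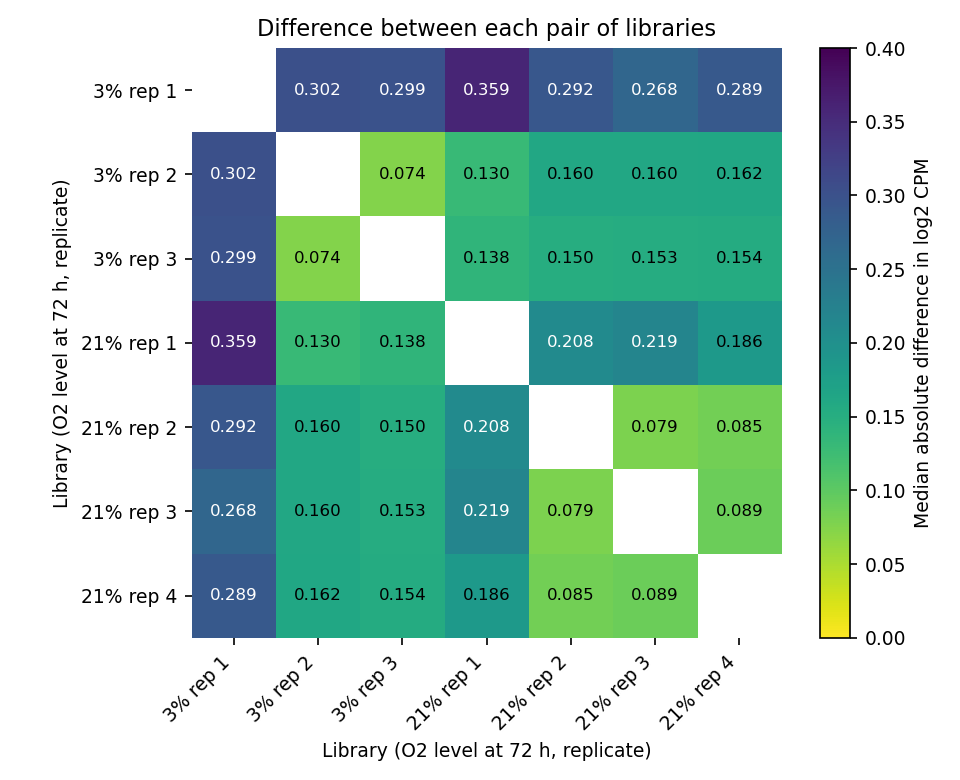
Median absolute difference in log2 CPM between each pair of the 7 libraries, printed in each cell and shown by colour (scale at right; blank on the diagonal). Replicates 2 and 3 at 3% O2 and replicates 2, 3 and 4 at 21% O2 form 2 tight sets at 0.089 or less, while the row of replicate 1 at 3% O2 runs from 0.268 to 0.359.

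The concentration of reads in the most abundant genes followed the same lines. The 100 most abundant genes of each library took 30.8% and 31.0% of the counts in replicates 2 and 3 at 3% O2, and 31.3% in the library labelled replicate 1 at 21% O2. They took 26.8%, 27.8% and 27.2% in replicates 2, 3 and 4 at 21% O2, and 25.7% in replicate 1 at 3% O2. Between the groups as labelled, the mean share was 29.2% ± 2.98 at 3% O2 (SD, n = 3) and 28.3% ± 2.05 at 21% O2 (SD, n = 4), with overlap (two-sided exact permutation test, p = 0.686, adjusted p = 0.686).

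The departures of replicate 1 at 3% O2 from the controls by at least 2-fold were mainly towards lower levels. Each library was set against the mean of the control libraries, itself left out, over the 13690 genes that passed the low-count filter. On this measure, replicate 1 at 3% O2 was at least 2-fold lower than the 4 controls for 1387 genes and at least 2-fold higher for 365, or 12.8% of genes in all. For replicates 2 and 3 at 3% O2 the numbers were 119 lower and 141 higher, and 77 lower and 131 higher, or 1.90% and 1.52% of genes.

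Among the controls, the library labelled replicate 1 was at least 2-fold from the mean of the other 3 for 4.13% of genes, with 274 lower and 291 higher, and replicates 2, 3 and 4 for 0.592%, 0.614% and 0.745%. The share for that control was larger than those of replicates 2 and 3 at 3% O2, but the references were unlike. Libraries at 3% O2 were set against the mean of all 4 controls, which included this control, itself near to replicates 2 and 3 at 3% O2. The shares are therefore not directly comparable. In rank, replicate 1 at 3% O2 held the highest or the lowest level of the 7 libraries for 64.6% of genes. The share was 17.5% to 38.2% for each of the others. Replicate 1 at 3% O2 was highest for 4318 genes and lowest for 4529. It had no count for 13 genes that had at least 10 counts in every other library, and no other library lacked a gene in this way.

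The departure of replicate 1 at 3% O2 was not confined to weakly expressed genes. It was at least 2-fold from the controls for 26.1% of the 988 genes with a mean under 1 CPM and 19.6% of the 3716 genes at 1 to 10 CPM. The shares were 8.72% of the 7086 genes at 10 to 100 CPM and 7.68% of the 1900 genes above 100 CPM. For replicates 2 and 3 at 3% O2 the shares above 100 CPM were 0.368% and 0.526%. In bulk RNA, fewer cells of a type and less RNA per cell cannot be told apart, and what set the 2 libraries apart was not tested.

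Whether the label of replicate 1 at 21% O2 is right cannot be told from these files and was not tested, and the values that follow hold for the groups as labelled. Between these groups, no gene passed the test of 3% against 21% O2. By edgeR (quasi-likelihood test, Benjamini-Hochberg adjustment), there were 0 calls among 13690 genes at an adjusted p under 0.05 (0%), and the smallest adjusted p was 0.511. Without adjustment, p was under 0.05 for 1312 genes, 9.58% of those tested, of which 705 were higher and 607 lower at 3% O2. More genes were lower than higher when only library size was used for scaling (462 higher, 793 lower), with all 17 libraries in the fit (344 and 450), with limma-voom (688 and 738) and without replicate 1 at 3% O2 (800 and 822). The number at an unadjusted p under 0.05 was 2210 without the library labelled replicate 1 at 21% O2, and 589, 709 and 563 without replicates 2, 3 and 4 there. DESeq2 called 38 of the 13690 genes, 22 higher and 16 lower, and limma-voom 0. In all 38 genes called by DESeq2 the 3 libraries at 3% O2 did not overlap the 4 at 21% O2, and 12 of them differed by at least 2-fold. Over all genes tested, 11.2% did not overlap and 2.20% had a fitted fold of at least 2 by edgeR. The 38 were chosen by a small p on the same 7 libraries, so their lack of overlap is a description only.

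The fitted differences were small for most genes. The median log2 fold change was 0.01 and the median size of the change 0.15 on the log2 scale. A fitted fold of at least 2 was seen for 59 higher and 242 lower genes, 2.20% of those tested. These numbers moved with single libraries of both groups. Without replicates 1, 2 and 3 at 3% O2 in turn, the higher genes numbered 112, 102 and 106 and the lower genes 108, 479 and 530. The higher genes numbered 180 without the library labelled replicate 1 at 21% O2 and 32 without replicate 2 there, and the lower genes 159 without replicate 3 there. The excess of lower genes turned round without both libraries numbered 1 (277 higher, 167 lower) and with library quality weights (238 higher, 130 lower), both chosen after the profiles were seen. It was larger with limma-voom (69 higher, 448 lower), and without a low-count filter the numbers were 1926 and 3265. For 10888 genes, 79.5% of those tested, the 95% interval of the log2 fold change lay wholly within a 2-fold change in either direction. By mean level, this held for 21.1% of genes under 1 CPM and 67.0% of those at 1 to 10 CPM. It held for 91.0% at 10 to 100 CPM and for 91.8% of the genes above. For the other 2802 genes a change of 2-fold or more was not excluded by the interval, which covers 1 gene at a time.

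All 3 libraries at 3% O2 lay above all 4 at 21% O2 for 741 genes (5.41%), and below all 4 for 793 genes (5.79%). Together these were 11.2% of the genes tested. When only library size was used for scaling, 497 genes were higher and 928 lower, and the values that follow are for the scaling of the main test. In log2 fold change, the median was 0.35 for the higher genes (quartiles 0.24 and 0.51) and -0.39 for the lower genes (quartiles -0.69 and -0.22). A fold of at least 2 was reached by 18 of the higher and 88 of the lower genes. The share without overlap was lowest, 7.69%, for genes under 1 CPM and highest, 13.9%, for those above 100 CPM.

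**Figure D3:**
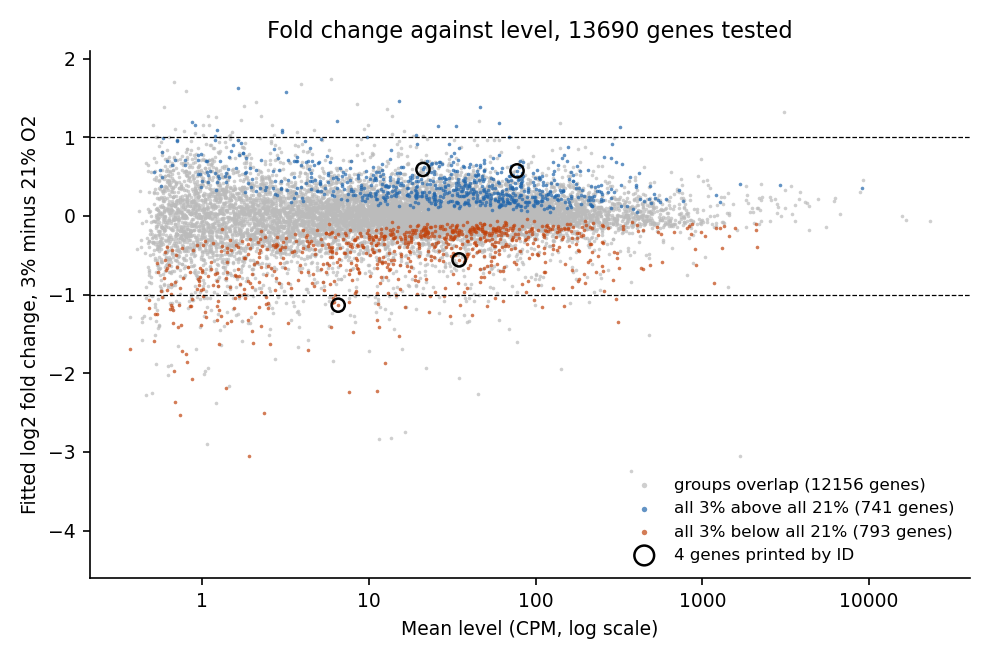
Fitted log2 fold change of 3% against 21% O2 (vertical, dashed lines at a 2-fold change) against mean level in CPM (horizontal, log scale); each of the 13690 points is 1 gene, coloured where the groups do not overlap, and open circles mark the 4 genes printed by ID. The 741 higher and 793 lower genes without overlap lie mostly inside the dashed lines.

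Of the 741 genes higher and the 793 lower at 3% O2 without overlap, 644 and 607 averaged 5 CPM or more in their higher group. These formed only the pool from which genes were picked. The 2 of each kind with the smallest unadjusted p are described here by ID. They were chosen by this contrast, so their values are a description, and none passed the edgeR test (adjusted p = 0.511 for each). All 4 were among the 38 genes called by DESeq2.

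ENSECAG00000018906 had 95.0, 85.1 and 97.3 CPM in replicates 1, 2 and 3 at 3% O2, and 68.7, 58.7, 64.7 and 56.6 CPM in replicates 1 to 4 at 21% O2. The lowest library at 3% O2 was above the highest at 21% O2, and replicate 1 at 3% O2 lay among the others of its group. The means were 92.4 ± 6.47 CPM (SD, n = 3) and 62.1 ± 5.54 CPM (SD, n = 4), and the log2 fold change was 0.57 ± 0.10 (SE, 95% interval 0.35 to 0.80).

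ENSECAG00000005000 had 23.0, 25.5 and 27.5 CPM at 3% O2 and 17.6, 15.5, 17.2 and 16.9 CPM at 21% O2, in the same order of replicates. The controls spanned a narrow range that no library at 3% O2 entered. The log2 fold change was 0.59 ± 0.10 (SE, 95% interval 0.35 to 0.83), from means of 25.3 ± 2.25 CPM (SD, n = 3) and 16.8 ± 0.894 CPM (SD, n = 4).

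ENSECAG00000030504 had 24.8, 30.8 and 28.7 CPM at 3% O2, under all 4 controls at 37.6, 42.4, 41.3 and 44.0 CPM. The lowest of the controls was the library labelled replicate 1. The log2 fold change was -0.56 ± 0.11 (SE, 95% interval -0.81 to -0.31), from means of 28.1 ± 3.07 CPM at 3% O2 (SD, n = 3) and 41.3 ± 2.69 CPM at 21% O2 (SD, n = 4).

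ENSECAG00000000982 had 3.86, 4.12 and 4.31 CPM at 3% O2 and 5.77, 10.5, 10.3 and 9.26 CPM at 21% O2. The 3 libraries at 3% O2 were close together, and the library labelled replicate 1 at 21% O2 lay nearer to them than to the other 3 controls. The log2 fold change was -1.13 ± 0.22 (SE, 95% interval -1.65 to -0.62), from means of 4.10 ± 0.226 CPM (SD, n = 3) and 8.96 ± 2.20 CPM (SD, n = 4).

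**Figure D4:**
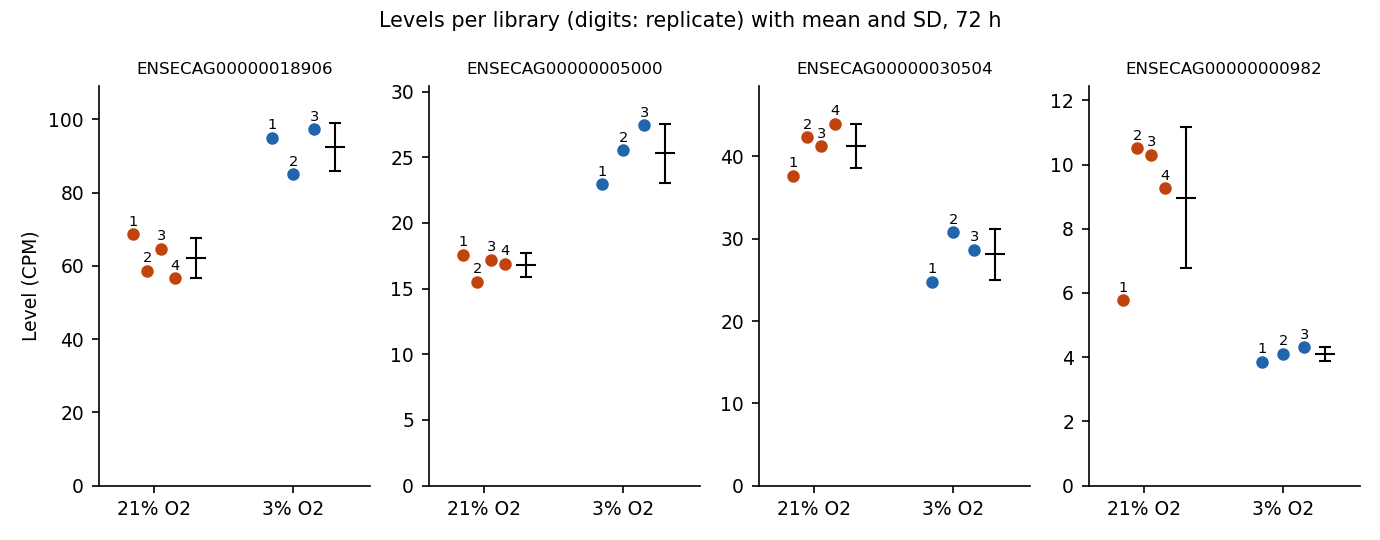
Levels in CPM (vertical, from 0, a separate scale for each gene) of the 4 genes printed by ID; each point is 1 library with its replicate number, and the bar beside each group gives the mean and SD. In none of the 4 do the groups overlap, and for ENSECAG00000000982 the library labelled replicate 1 at 21% O2, at 5.77 CPM, lies below the other controls at 9.26 to 10.5 CPM.

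How far the comparison rested on the 2 libraries that stood apart was measured by leaving them out. Without the library labelled replicate 1 at 21% O2, the edgeR test called 73 of 13675 genes (0.534%), 37 higher (0.271%) and 36 lower (0.263%) at 3% O2. Their median log2 fold changes were 0.89 and -1.03, and 13 of the higher and 19 of the lower genes changed by at least 2-fold. The 73 included genes of every level, with 22 above a mean of 100 CPM and 2 under 1 CPM. All 73 had the same direction in the fit of 7 libraries, where their medians were 0.60 and -0.81. Both fits share every library but this control, so the shared direction is a description only. Of the 4 genes printed by ID, ENSECAG00000018906 and ENSECAG00000000982 were among the 73, with edgeR adjusted p of 0.0489 and 0.0268.

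With this control kept, DESeq2 called 10 of the 73 genes. The position of the left-out control in the 73 genes is given as a description. Its whole profile was already seen to lie near 3% O2, and the genes passed the edgeR test only with it left out. Its log2 level lay nearer to the mean of the libraries at 3% O2 than to that of the other 3 controls for 72 of the 73 genes, and for 7513 of all 13675 genes tested (54.9%). On a scale where 0 is the mean of those controls and 1 the mean at 3% O2, its median position was 0.941 (quartiles 0.828 and 1.15). Leaving out any other single library gave 0 genes, with a smallest edgeR adjusted p between 0.396 and 0.877.

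With both libraries numbered 1 left out, the edgeR test called 3673 of 13813 genes (26.6%), 2013 higher and 1660 lower at 3% O2, and all 73 genes were among them. This compares replicates 2 and 3 at 3% O2 with replicates 2, 3 and 4 at 21% O2, a choice made after the profiles were seen, which makes its p-values too small. The common biological coefficient of variation, the spread between libraries of a group beyond counting noise, was 19.8% with all 7 libraries. It was 18.8% without the control, 12.3% without replicate 1 at 3% O2 and 6.57% without both. The medians of the 2013 and 1660 log2 fold changes were 0.40 and -0.35, and 254 higher and 128 lower genes reached a 2-fold change.

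Neither of the left-out libraries entered the fit that called these 3673 genes, although both had been left out because of their whole profiles. The library labelled replicate 1 at 21% O2 lay nearer to the mean at 3% O2 for 3068 of them (83.5%) and for 65.1% of all genes tested, at a median position of 1.02 (quartiles 0.691 and 1.34). Replicate 1 at 3% O2 lay nearer to its own group's mean for 1791 of them (48.8%) and for 48.3% of all genes tested, at a median position of 0.462 (quartiles -0.503 and 1.66). By direction, it did so for 827 of the 2013 higher genes and 964 of the 1660 lower genes. The share over all genes was not split by direction, so these counts are a description only. For 948 genes it lay below -1 or above 3 on this scale, where the other library did so for 18. The scale is relative to the fold change of each gene, which was as small as 0.14 (higher) and 0.13 (lower) in log2. A position beyond its ends can therefore be a small difference in level.

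**Figure D5:**
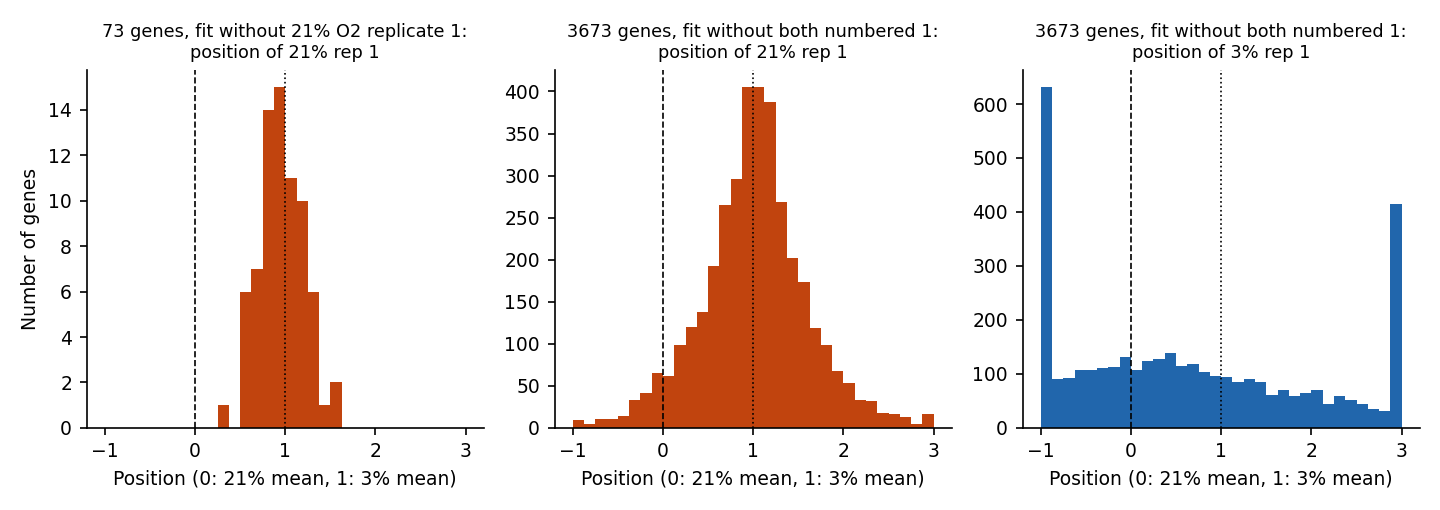
Position of a left-out library for each gene called without it (horizontal, 0 at the mean of the remaining 21% O2 libraries, dashed, and 1 at the mean of the 3% O2 libraries in the fit, dotted; values below -1 or above 3 are drawn in the end bars); bars count genes. The library labelled replicate 1 at 21% O2 gathers around 1 for the 73 genes (left) and the 3673 genes (middle), while replicate 1 at 3% O2 (right) is spread over the whole scale with 948 genes beyond its ends.

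All 7 libraries were kept and each given a weight estimated from its spread (limma-voom with quality weights, also chosen after the profiles were seen). Of the 13690 genes tested, 2836 passed, 1630 higher and 1206 lower. The weight was 0.0867 for replicate 1 at 3% O2 and 0.274 for the library labelled replicate 1 at 21% O2, against 1.78 to 2.41 for the other 5. The 4 genes printed by ID passed there with limma adjusted p from 0.000734 to 0.000886. Their log2 fold changes were 0.60 for ENSECAG00000018906, 0.69 for ENSECAG00000005000, -0.52 for ENSECAG00000030504 and -1.22 for ENSECAG00000000982. The weights were estimated on the same labelled groups that were compared.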

How the data were processed

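Whole-number read counts per Ensembl gene ID were used as deposited, 1 table per library. Among the tools in the submitters' processing notes are STAR 2.7.10a, HTSeq 0.13.5 and fastp 0.23.2, with the build EquCab3.0 and no stated roles. Strand setting, annotation release and the handling of multi-mapped reads were not given in the sources used here. Overlapping, antisense or near-identical genes therefore have uncertain counts.

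The members and lists were chosen with earlier results of these data known. Of 38849 IDs, 23265 had a count in the 7 libraries and 13690 passed filterByExpr. The main test was edgeR 4.0.16 (R 4.3.3), the quasi-likelihood test with TMM scaling on the 7 libraries. Benjamini-Hochberg adjustment ran over all genes tested, with a threshold of 0.05. Standard errors and intervals follow from the test statistic. A prior count of 2 was used for log2 CPM. DESeq2 1.42.0 and limma 3.58.1 were alternatives, with other scalings, filters, thresholds and libraries left out. A reference table of 39335 horse genes matched 0 IDs, which left the 9 gene lists and 8 marker lists unused. Genes named in the text are, from genes without overlap whose higher group averages 5 CPM or more, the 2 higher and 2 lower genes of smallest unadjusted p. No sequence or position is printed for them. No sequencing batch or date is given in the labels used here.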

Additional observations from a re-analysis of the deposited data

Results flagged for a closer look

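In the group of 4 libraries at 21% O2, 9 values were examined for a library far from the others, as its distance to the next library divided by the whole range (Dixon, 95% limit). For a single value, chance alone flags about 1 in 20 such groups, so more are flagged over 9 values, which also share the same libraries. Past the limit was 1 value, a principal component score. Its axis was fitted to these same libraries, so the limit is not exact for it. The library labelled replicate 1 at 21% O2 had a score of 27.4 on the second principal component, where the other 3 lay between -22.7 and -21.5, a gap of 0.977 of the range. The group of 3 at 3% O2 was not examined in this way, and replicate 1 there is described by its values.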

How the results depend on the processing

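The count of 0 genes was also given by edgeR without a low-count filter, with a filter of 1 CPM in 3 libraries, scaled by library size alone or by DESeq2 size factors, with robust empirical Bayes, with all 17 libraries in 1 fit, a test against a fold of 1.5 or an adjusted p of 0.10, and by limma-voom. It was 38 (22 higher, 16 lower) with DESeq2, and the cause was not tested. With 1 library left out it ran from 0 to 73 in all, 0 to 37 higher and 0 to 36 lower. Among the alternatives chosen after seeing the data, leaving out both libraries numbered 1 gave 3673 of 13813 genes (2013 higher, 1660 lower). Fewer libraries and a lower spread enter there. The other, quality weights, gave 2836 of 13690 genes (1630 higher, 1206 lower). The log2 fold changes of the 4 genes printed by ID kept their direction under all 19 alternatives. These genes were picked for groups that do not overlap in the same 7 libraries. A change of direction was therefore unlikely from the outset, and the kept direction is a description only. The difference in mean total count, 3% less 21% O2, ran from -2877037 to 579490 with 1 library left out and so changed sign. Genes without overlap numbered 741 higher and 793 lower of 13690 tested. They numbered 1827 and 1977 of 13675 without the library labelled replicate 1 at 21% O2. Leaving out replicates 1, 2 and 3 at 3% O2 gave 1441, 1192 and 1248 higher and 1610, 1327 and 1330 lower. The genes tested there were 13788, 13957 and 13860. By construction, fewer libraries leave less room for overlap. Under 1 CPM, 21.1% of intervals lay within a 2-fold change, against 91.8% above 100 CPM.

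A replicate block by title number, on the 6 libraries numbered 1 to 3, called 0 genes, with 774 at an unadjusted p under 0.05 (318 higher, 456 lower) against 563 in the same 6 libraries without the block. For same-numbered libraries, the deviations from the group means correlated at r = -0.15, -0.09 and -0.09 across genes for numbers 1, 2 and 3. Such deviations cancel within a group, and both libraries that stood apart carry the number 1. These values therefore cannot decide whether the numbers are pairs, and the main test did not treat them as pairs.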
